A study of Mus musculus with 2 samples.

Results

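A list of dual-specificity phosphatases, most of which switch off MAP kinases, was examined for binding of the transcription factor EGR1 in mouse frontal cortex. It does not hold the whole family. The 10 genes were Dusp1, Dusp2, Dusp4, Dusp5, Dusp6, Dusp7, Dusp8, Dusp10, Dusp14 and Dusp16, put in 1 list by family and not by their peaks. Earlier results of these data were known when the list was made. An EGR1 peak was given to a gene when its centre lay in the gene body or within 10 kb of a transcription start site (TSS) of the GENCODE release M21 annotation. By this rule the genes took 12 of the 12014 deposited peaks, and 7 of the 10 genes had at least 1 peak. The peaks came from ChIP-seq, the sequencing of cross-linked chromatin recovered with an EGR1 antibody, on frontal cortices of 129SvEv/C57BL/6N F1 hybrid male mice aged 6 weeks. The labels name no mutation and no treatment, and the only other group is input DNA, for which no peak list was used here. Each of the 2 ChIP experiments pooled 4 to 5 mice, and the list merges both. Each peak carries an irreproducible discovery rate (IDR), and the more alike and the higher its ranks in both experiments, the lower this rate. There are no read counts and no values of single experiments, so the depth is unknown, the spread between experiments could not be computed and no test between samples was possible. The cortex was used whole, so a peak cannot be placed in neurons or glia, and no cell type markers are measured by a peak list.

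MAP kinases are switched on by phosphorylation of a threonine and a tyrosine in their activation loop, and dual-specificity phosphatases remove both phosphates. Many of these phosphatases are made in response to the kinases that they inhibit, which closes a negative feedback loop. Dusp1, Dusp2, Dusp4 and Dusp5 encode inducible nuclear enzymes, Dusp6 and Dusp7 cytoplasmic enzymes that prefer ERK, and Dusp8, Dusp10 and Dusp16 enzymes that prefer JNK and p38. Dusp14 encodes a small atypical member without the kinase-binding domain of the others. EGR1 is itself an immediate early protein of neurons: ERK signalling induces its gene through serum response factor, which binds CArG boxes, and its zinc fingers recognise a GC-rich motif of 9 bases.

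The EGR1 motif was searched as GCGTGGGCG and GCGGGGGCG on both strands, and 5 of the 12 peaks held an exact copy. Their sequences are shown first because they carry the letters that EGR1 is known to bind. All sequences are from mm10, run 5′ to 3′ on the strand of the gene and leave out annotated UTRs, and the motif is in capitals. A motif on the other strand reads CGCCCCCGC or CGCCCACGC. For Dusp1 the motif lay outside the printable part, so a window of 29 bases around it is given (chr17:26561503-26561531, minus strand). The Dusp2 sequence covers chr2:127336010-127336158 on the plus strand, the Dusp7 sequence chr9:106369139-106369402 on the plus strand, the Dusp8 sequence chr7:142094560-142094823 on the minus strand and the Dusp10 sequence chr1:184033469-184033718 on the plus strand.
Dusp1 peak 1 motif window: tcggccgcccCGCCCCCGCcagcctgccc
Dusp2 peak 1: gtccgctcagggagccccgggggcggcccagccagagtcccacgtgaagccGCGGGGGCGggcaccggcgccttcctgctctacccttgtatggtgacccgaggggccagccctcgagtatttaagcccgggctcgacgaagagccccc
Dusp7 peak 3: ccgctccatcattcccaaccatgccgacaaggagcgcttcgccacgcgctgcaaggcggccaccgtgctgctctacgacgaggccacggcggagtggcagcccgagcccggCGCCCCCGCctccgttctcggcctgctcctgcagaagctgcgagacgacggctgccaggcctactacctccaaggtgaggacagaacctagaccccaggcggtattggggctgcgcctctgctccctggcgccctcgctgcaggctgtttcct
Dusp8 peak 1: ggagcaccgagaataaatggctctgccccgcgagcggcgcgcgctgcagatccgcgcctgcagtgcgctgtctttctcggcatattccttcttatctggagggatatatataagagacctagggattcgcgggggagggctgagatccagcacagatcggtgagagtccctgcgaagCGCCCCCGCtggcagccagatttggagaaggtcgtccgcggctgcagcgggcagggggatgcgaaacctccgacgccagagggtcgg
Dusp10 peak 1: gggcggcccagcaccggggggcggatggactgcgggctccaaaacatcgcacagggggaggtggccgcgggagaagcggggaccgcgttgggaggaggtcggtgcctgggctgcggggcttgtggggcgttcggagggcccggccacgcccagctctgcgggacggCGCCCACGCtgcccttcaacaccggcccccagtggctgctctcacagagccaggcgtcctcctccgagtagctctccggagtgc

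A second set shows the peaks with the lowest IDR at Dusp6, Dusp7 and Dusp14, where no exact motif was found, and the rest of the Dusp1 peak. In the Dusp7 peak (chr9:106368419-106368590, plus strand) the capitals mark 4 sites that differ from the motif at a single base. In the Dusp6 peak (chr10:99261112-99261361, plus strand) and the Dusp1 stretch (chr17:26561369-26561488, minus strand) they mark a CArG box. The Dusp14 stretch (chr11:84068581-84068689, minus strand) held neither, and nothing in it is in capitals. The lowest-IDR peak of Dusp10 lay wholly in the 5′UTR and is not printed.
Dusp7 peak 2: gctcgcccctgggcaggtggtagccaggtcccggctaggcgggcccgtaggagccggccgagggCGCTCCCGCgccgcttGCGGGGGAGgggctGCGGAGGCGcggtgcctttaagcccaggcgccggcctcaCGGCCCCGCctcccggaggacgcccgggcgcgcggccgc
Dusp6 peak 1: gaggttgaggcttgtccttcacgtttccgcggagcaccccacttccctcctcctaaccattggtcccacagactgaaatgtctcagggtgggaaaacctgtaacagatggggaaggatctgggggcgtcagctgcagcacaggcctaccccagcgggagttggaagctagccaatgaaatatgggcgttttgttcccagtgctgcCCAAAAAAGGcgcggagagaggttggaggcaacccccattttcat
Dusp1 peak 1, printable stretch: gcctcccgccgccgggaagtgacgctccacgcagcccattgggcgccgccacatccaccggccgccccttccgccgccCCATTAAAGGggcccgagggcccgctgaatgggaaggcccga
Dusp14 peak 1, printable stretch: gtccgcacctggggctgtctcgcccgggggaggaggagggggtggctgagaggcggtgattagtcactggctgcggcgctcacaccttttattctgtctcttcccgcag

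A peak was found at 7 of the 10 genes (70%, 95% Wilson interval 39.7 to 89.2%), where 39.6% of the 21938 protein-coding genes had a peak by the same rule. Dusp7 had 3 peaks, Dusp8, Dusp10 and Dusp14 had 2 each, and Dusp1, Dusp2 and Dusp6 had 1 each. Dusp4, Dusp5 and Dusp16 had none. Genes with 2 or more peaks were 4 of the 10, beside 13.7% of protein-coding genes. The mean was 1.2 peaks per gene against 0.619, with a median gene length of 14838.5 bp against 17425 bp. A peak centre within 1 kb of a start site was found at 6 of the 10 genes, beside 28.1% of protein-coding genes. With 10 genes the interval of each share is wide, and it covers counting error over genes only.

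**Figure D1:**
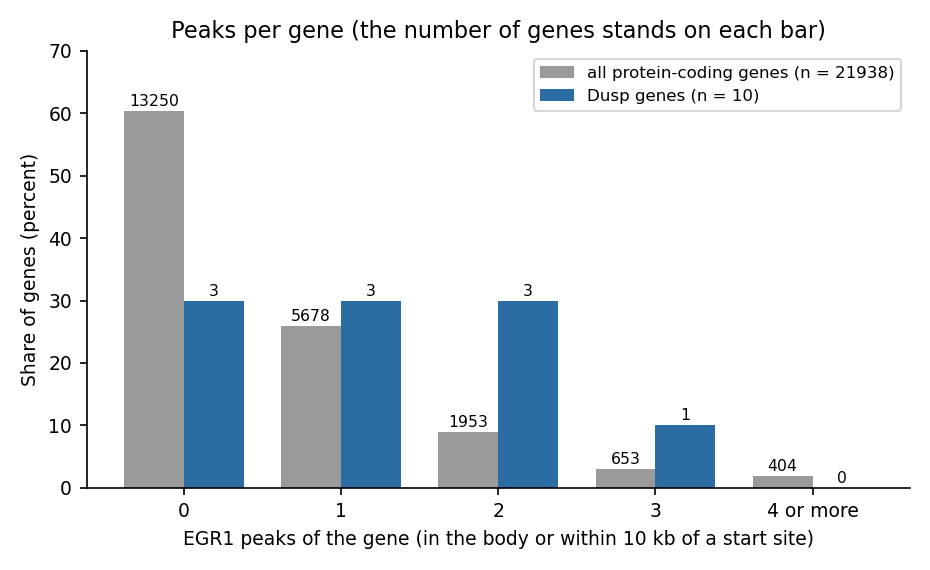
Share of genes (y axis, percent) by their number of EGR1 peaks (x axis), for the 10 Dusp genes (blue) and 21938 protein-coding genes (grey), with the number of genes on each bar. No peak was found at 3 Dusp genes and at 13250 protein-coding genes, and 3 peaks at 1 and 653.

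Among the nuclear inducible enzymes, Dusp2 and Dusp1 had a peak and Dusp4 and Dusp5 had none. Dusp2 (ENSMUSG00000027368, chr2:127336159-127338376) encodes a phosphatase first known from activated lymphocytes. Its peak, chr2:127336010-127336172, was 163 bp wide, overlapped the TSS and had its centre 68 bp upstream of it. The IDR was 5.34e-07, which ranked the peak in the lowest 19.1% of all peaks. The exact motif lay 26 bp from the centre, and a site with a single mismatch lay 61 bp from it. The neighbouring gene Astl, which encodes an astacin-like protease, also took this peak, with a start site 2548 bp away.

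Dusp1 (ENSMUSG00000024190, chr17:26505590-26562128) encodes the founding member of the family and is an immediate early gene. Its peak, chr17:26561369-26561632, had an IDR of 5.17e-05 and a rank of 38.7%. It was centred 1 bp from the start of the noncoding transcript Dusp1-201 and 628 bp inside the long coding transcript Dusp1-205, in an intron. The coding transcripts Dusp1-202 and Dusp1-206 start about 53 kb downstream, at distances of 52981 and 53028 bp, and no EGR1 peak lay nearer to these start sites. The peak was also 11 bp from a start site of Ergic1, a gene of transport between endoplasmic reticulum and Golgi that is read in the other direction. Assignment to Dusp1 therefore rests on 2 of its 6 annotated transcripts, and without them 6 of the 10 genes had a peak. Which of both genes the peak acts on was not tested.

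Dusp4 (ENSMUSG00000031530, chr8:34807297-34819894), which acts on ERK and JNK, had its nearest peak 158447 bp away, 54 bp from a start site of Tnks. Dusp5 (ENSMUSG00000034765, chr19:53529109-53542431), specific for ERK, had its nearest peak 28275 bp upstream of its TSS, with an IDR of 0.00376. That is the shortest distance among the 3 genes without a peak, and the farthest peak that the rule accepted was 4265 bp from a TSS. A gene without a peak in the list had none that passed the 2% IDR limit, and a weaker signal could not be looked for.

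Of the cytoplasmic enzymes, Dusp7 (ENSMUSG00000053716, chr9:106368632-106375724) had the most peaks of the 10 genes. Peak 2 lay between the others, with its centre 128 bp upstream of the TSS of the coding transcript Dusp7-201, and had the lowest IDR of the 3, 2.45e-05 (rank 35.1%). Its GC content was 81.4%, the highest of the 12 peaks. The site nearest its centre, GCGGGGGAG, was 1 bp from it, and the other sites with a single mismatch were 13, 17 and 52 bp away. Peak 3 lay over coding sequence, 638 bp inside Dusp7-201, and held the exact motif 16 bp from its centre at an IDR of 0.01001 (rank 88.7%). Peak 1, chr9:106367694-106367957, lay 807 bp upstream with an IDR of 0.0169 (rank 97.1%) and no site within a single mismatch. The peak with the weakest support and no motif thus lay farthest upstream, and the peak with the exact motif was not the one of lowest IDR.

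Dusp6 (ENSMUSG00000019960, chr10:99263231-99267489), a classical target of ERK signalling, had a single peak 1995 bp upstream of its TSS. The IDR was 0.000842 (rank 58.0%), and no site with fewer than 2 mismatches to the EGR1 motif was found. The peak held a CArG box, CCAAAAAAGG, 85.5 bp from its centre. Its GC content was 56.0%.

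Among the enzymes that prefer JNK and p38, Dusp8 and Dusp10 had 2 peaks each and Dusp16 had none. Dusp8 (ENSMUSG00000037887, chr7:142079490-142095843) is expressed in brain and heart. Peak 1, in an intron 581 bp downstream of the TSS of Dusp8-201, had an IDR of 1.38e-06 (rank 22.7%) and the exact motif 49 bp from its centre, with a single-mismatch site at the centre itself. Peak 2, chr7:142095785-142096048, overlapped the TSS of the longer transcript Dusp8-202 and had an IDR of 0.0184 (rank 98.6%), the highest of the 12. It held no site within a single mismatch, and its centre was 158 bp from the start of the noncoding gene Gm32786. The 2 peaks were 1225 bp apart and lay on either side of the TSS of Dusp8-201, at 581 and -644 bp.

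Dusp10 (ENSMUSG00000039384, chr1:184013302-184075636) held the peak of lowest IDR. Peak 2, chr1:184034420-184034485, was 66 bp wide and lay in the 5′UTR of Dusp10-201, 71 bp downstream of its TSS, with an IDR of 3.51e-07 (rank 15.5%). No EGR1 site with 2 or fewer mismatches was found in it, and widening it by 100 bp to each side added no exact motif. Its GC content was 43.9%, the lowest of the 12. Peaks of 100 bp or less were rare in the whole list, 107 of the 11938 peaks on assembled chromosomes, with a median IDR of 2.43e-07, a median GC content of 66.3% and an exact motif in 29.0%. Peak 1 lay in an intron of Dusp10-202, 788 bp upstream of the same TSS, with an IDR of 6.1e-05 (rank 39.5%) and the T form of the motif 46 bp from its centre. Both peaks were more than 20 kb inside the longer transcript Dusp10-202 and were also taken by 1700056E22Rik, whose start site was nearer to peak 1 (405 bp) than that of Dusp10.

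Dusp16 (ENSMUSG00000030203, chr6:134715468-134792625), which holds back JNK, had its nearest peak 105331 bp upstream of its TSS. That peak had an IDR of 3.64e-08, lower than any of the 12, and was 5 bp from a start site of 2810454H06Rik.

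Dusp14 (ENSMUSG00000018648, chr11:84048041-84069261) had 2 peaks. Peak 1, chr11:84068549-84068801, overlapped 2 of its 5 start sites and had an IDR of 4.97e-05 (rank 38.5%), no EGR1 site within a single mismatch and 45.8% of its bases in repeats, the largest share of the 12. Peak 2, chr11:84073395-84073658, lay 4265 bp upstream of the nearest TSS with an IDR of 0.00219 (rank 67.8%). It held a single-mismatch site 11 bp from its centre and was also taken by Tada2a, which encodes an adaptor of histone acetyltransferase complexes.

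**Figure D2:**
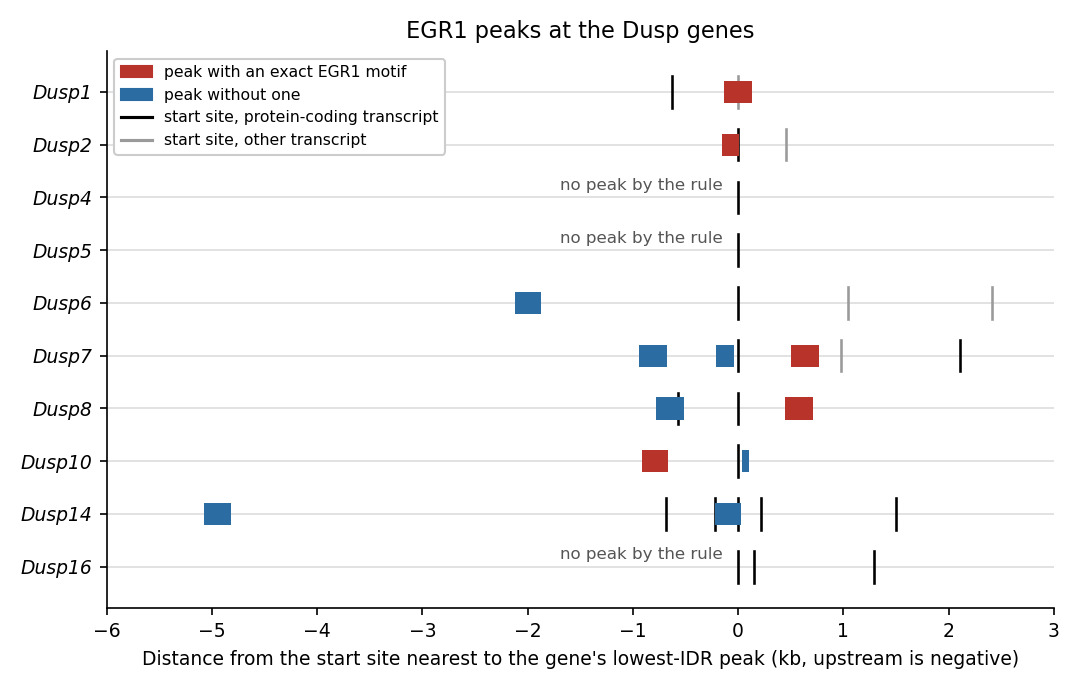
Position of each EGR1 peak (bars, true width) along the 10 genes, in kb from the gene's start site nearest to its lowest-IDR peak, with upstream negative. For genes without a peak the start of the first transcript is at 0. Ticks are start sites, and red bars hold an exact EGR1 motif. Start sites out of the frame are not drawn, namely those of Dusp1 about 53 kb to the right and some of Dusp7, Dusp10 and Dusp16. Of the 12 peaks, 10 lie within 1 kb of a start site of their gene.

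Across the 12 peaks, 10 were centred within 1 kb of a start site of their gene (83.3%, 95% Wilson interval 55.2 to 95.3%), beside 54.5% of the 13587 pairs of a protein-coding gene and a peak that it takes. Measured to the start sites of any protein-coding gene that takes the peak, the share was 65.8% of 10089 peaks. The centre lay upstream of the nearest own TSS in 10 of 12, beside 51.6% of the pairs, and 4 of 12 peaks overlapped an own TSS, beside 27.0%. The nearest TSS could be that of any transcript, in the pairs too. The Dusp1 peak, Dusp7 peak 3, Dusp10 peak 1 and Dusp14 peak 1, counted as upstream, also lay inside another, coding transcript of their gene. Another peak within 1 kb was found for 5 of the 12, namely the 3 of Dusp7 and the 2 of Dusp10, beside 13.8% of all peaks on assembled chromosomes. Those of 1 gene lie at the same promoter and are not independent of each other. Another protein-coding gene took 5 of the 12 peaks as well, and 26.1% of the peaks of protein-coding genes were taken by 2 or more. With peaks of a single protein-coding gene alone, 7 peaks at 4 genes (Dusp6, Dusp7, Dusp8 and Dusp14) were left, and the share of protein-coding genes fell to 22.7%.

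The median IDR of the 12 peaks was 5.64e-05, against 0.000236 for the 10089 peaks of protein-coding genes and 0.000321 for all 12014. The values ran from 3.51e-07 to 0.0184, so the peaks were spread over most of the list, with 7 of 12 ranked below 50%. The median rests on Dusp10: without its 2 peaks it was 0.000447, above the value of the protein-coding genes, and without any other gene it lay between 5.17e-05 and 6.1e-05. An IDR of 0.001 or less was found for 8 of 12 peaks (66.7%), beside 59.6% of all peaks, and these 8 covered all 7 genes. With this limit 29.0% of protein-coding genes had a peak, against 39.6% with the whole list.

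**Figure D3:**
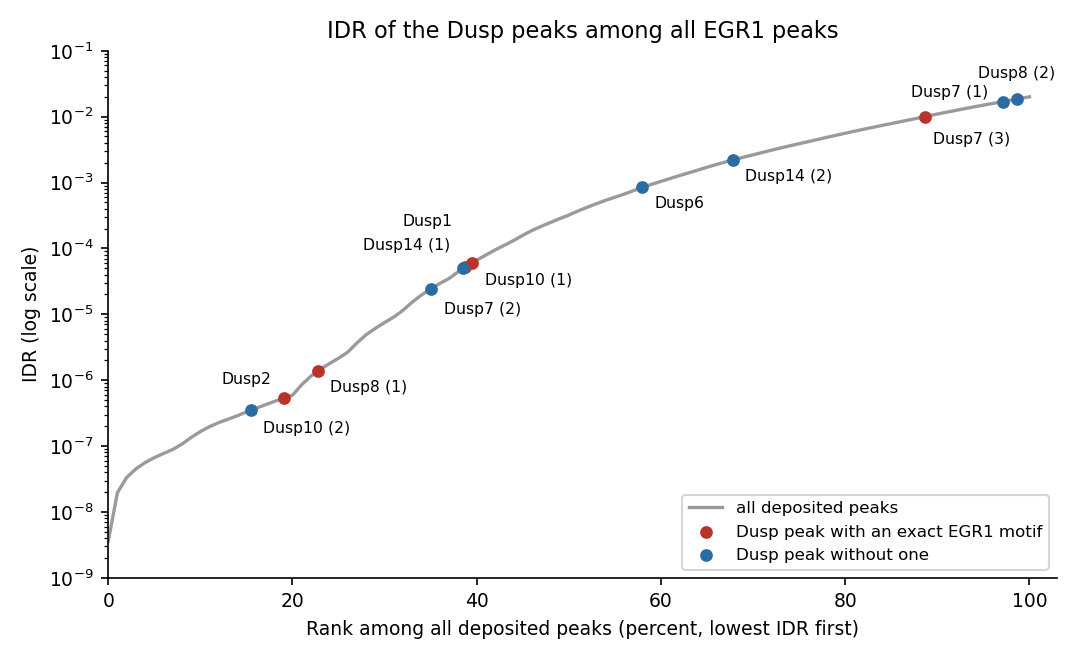
IDR (y axis, log scale) against rank among all 12014 peaks (x axis, percent, lowest IDR first). The grey curve is the whole list and the points are the 12 Dusp peaks, red with and blue without an exact EGR1 motif, with the peak number in brackets. They run from a rank of 15.5% (Dusp10 peak 2) to 98.6% (Dusp8 peak 2).

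The exact EGR1 motif occurred in 5 of 12 peaks (41.7%, 95% Wilson interval 19.3 to 68.0%), against 16.6% of the 11938 peaks on assembled chromosomes and 18.2% of the peaks of protein-coding genes. The peaks at Dusp1, Dusp2, Dusp7 and Dusp8 held the G form and that at Dusp10 the T form. Each of the 5 had a single exact site, within 49 bp of the peak centre, and 79.8% of the 2150 exact sites in all peaks lay within 50 bp. When a single mismatch was allowed, 7 of 12 peaks (58.3%) held a site, against 69.8% of all peaks, so the order of both shares turned round. The 5 peaks with the motif had IDRs from 5.34e-07 to 0.01001 and the 7 without it from 3.51e-07 to 0.0184, and the ranges overlapped almost wholly. The medians were 5.17e-05 with the motif and 0.000842 without it.

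The other motifs searched, on both strands, were chosen for factors known to act near start sites or downstream of MAP kinases. A CArG box was found in 2 of 12 peaks, at Dusp1 and Dusp6 (16.7%, 95% Wilson interval 4.70 to 44.8%), against 0.938% of all peaks. The CRE (TGACGTCA), bound by CREB, was in 0 of 12 and 1.298% of all peaks, and the short form TGACG, which every CRE contains, in 4 of 12 (33.3%) and 19.6%. The AP-1 site TGANTCA and the ETS site CCGGAAGT were each in 0 of 12, against 6.48% and 2.66%. Of the GC boxes of SP and KLF factors, GGGGCGGGG was in 2 of 12 (16.7%) and 16.9%, and CCGCCC, which it contains, in 6 of 12 (50%) and 55.8%. The GC box of the Dusp1 peak overlapped its EGR1 motif. These matches describe the letters in the peaks and do not show a bound factor.

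**Figure D4:**
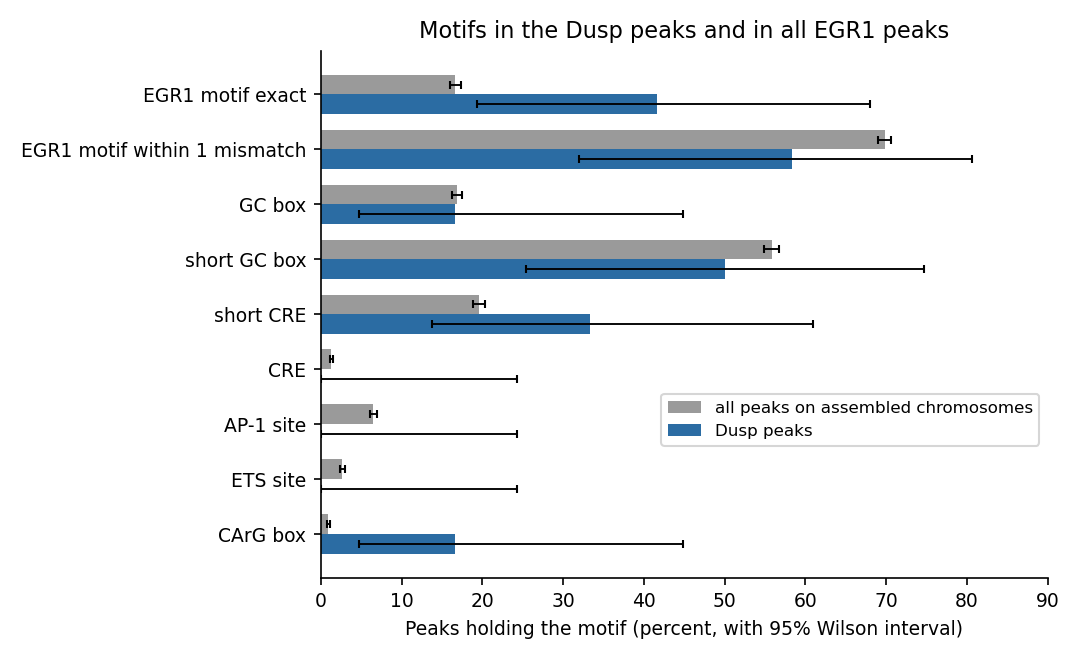
Share of peaks holding each motif (x axis, percent), for the 12 Dusp peaks (blue) and the 11938 peaks on assembled chromosomes (grey), with 95% Wilson intervals. The intervals of the Dusp peaks hold the share of all peaks except for the exact EGR1 motif (19.3 to 68.0% against 16.6%) and the CArG box (4.70 to 44.8% against 0.938%). They are no test: they treat peaks of 1 gene as independent and take no account of the number of motifs searched.

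The CpG ratio, the number of CpG dinucleotides over that expected from the C and G content, was above that of the surroundings in most of the peaks. Its median was 0.729 in the 12 peaks, 0.662 in the peaks of protein-coding genes and 0.600 in all peaks, and it was 0.176 in the flanks, taken as equally wide windows at 5 kb on either side. The peak was above its flanks in 10 of 12 (83.3%), beside 85.3% of all peaks. The exceptions were Dusp6 (0.409 against 0.441) and Dusp14 peak 2 (0.251 against 0.751), which are the 2 peaks more than 1 kb from a start site. This depends on the flank distance. With flanks at 2 kb, Dusp14 peak 2 lay above them (0.251 against 0.0635). Dusp10 peak 2, 71 bp from a TSS, then lay below (0.314 against 0.407), and Dusp6 still did (0.409 against 0.515). The highest ratios were 0.972 in Dusp8 peak 1 and 0.929 in the Dusp1 peak. The 5 peaks with the exact motif had ratios of 0.717 to 0.972 and the 7 without it of 0.251 to 0.880, and the motif itself contains CpGs. The median GC content was 64.8% in the 12 peaks and 60.4% in all peaks.

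**Figure D5:**
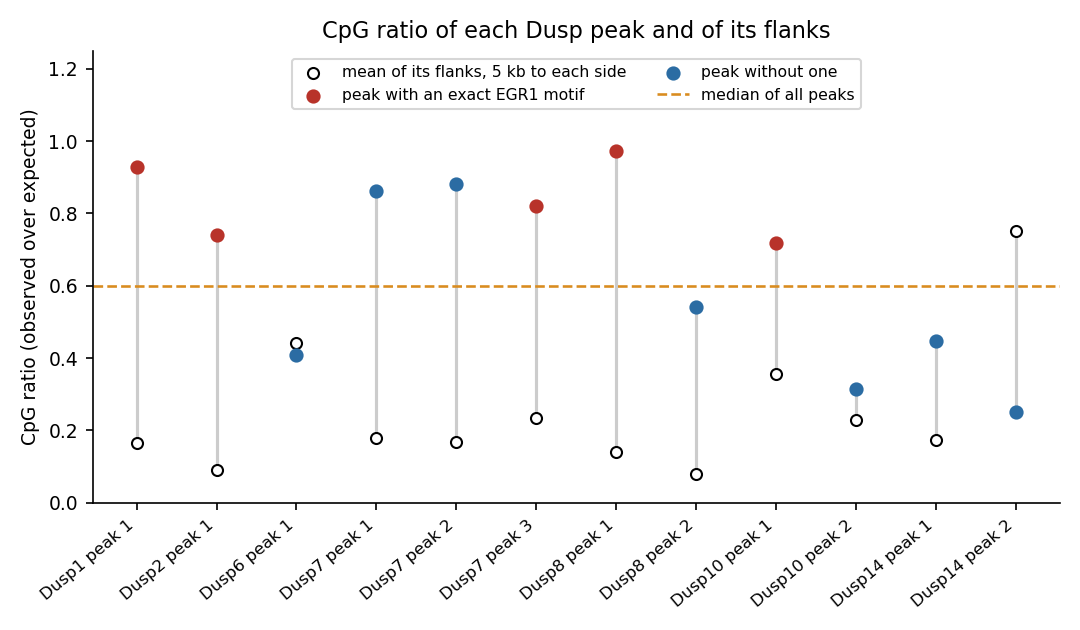
CpG ratio (y axis, observed over expected) of each of the 12 peaks (filled points, red with and blue without an exact EGR1 motif) and of its flanks 5 kb to each side (open points, mean of both). The dashed line is the median of all peaks, 0.600. The peak lies above its flanks in all but Dusp6 and Dusp14 peak 2.

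The promoters themselves were looked at in RefSeq windows from 250 bases before to 50 after the start of each gene (GRCm38.p6), which were matched for 9 of the 10 genes, Dusp4 being the gene without an entry. A peak overlapped 4 of the 9 windows, those of Dusp2, Dusp7, Dusp10 and Dusp14, beside 13.0% of all 32817 windows and 18.4% of the 20118 windows of protein-coding genes. The exact EGR1 motif was in the Dusp2 window alone, beside 3.47% of all windows. The full CRE, the site through which CREB acts on activity-induced genes, was in the windows of Dusp1 (1 copy) and Dusp8 (2 copies), beside 1.79% of all windows, and neither window was overlapped by an EGR1 peak. At Dusp8 the EGR1 peaks lay on either side of that window, and at Dusp1 the EGR1 peak lay at the distant start sites. The Dusp5 window held 2 CArG boxes, beside 1.63% of windows with any, and no peak. An EGR1 site with at most a single mismatch was in 7 of the 9 windows, beside 27.2% of all windows and 36.3% of those of protein-coding genes. The 5 windows without a peak held such sites in 3 cases, with 1 site each at Dusp1 and Dusp5 and 3 sites at Dusp16. The 9 windows had a median CpG ratio of 0.855, beside 0.383 over all windows. All windows include many that are not of protein-coding genes. The shares of the exact motif, CRE and CArG box and the CpG ratio were not computed for protein-coding genes apart.

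Other genes of the pathway were counted by the same rule. Of 13 further dual-specificity phosphatases, 5 had a peak (38.5%, 95% Wilson interval 17.7 to 64.5%), close to the 39.6% of protein-coding genes, with 6 peaks in all. Dusp9, Dusp11, Dusp12, Dusp19, Dusp21, Dusp22, Dusp26 and Dusp28 had none. Of 6 Sprouty and Spred genes, which inhibit ERK signalling upstream of the kinases, 4 had a peak, and Spry2 and Spry4 had none. Spry3 was not analysed here. Of 10 MAP kinase genes, the substrates of the phosphatases, 8 had a peak (80.0%, 95% Wilson interval 49.0 to 94.3%), and Mapk7 and Mapk14 had none. Mapk11 and Mapk12, both on chromosome 15, each had 1 peak at the same IDR of 1.8e-07, so they may share it. A peak centre within 1 kb of a start site was found at 6 of the 10 MAP kinase genes. Mapk10, which encodes a neuronal JNK, had 4 peaks over a gene length of 303387 bp. The intervals of these lists and of the 10 phosphatase genes overlapped.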

How the data were processed

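EGR1 ChIP-seq libraries of frontal cortex and input DNA made up the series. According to the methods and the submitters' processing notes, reads were trimmed and aligned to mm10 by the authors using Bowtie (the notes list Bowtie2 2.2.9 and bedtools 2.26.0), SPP called the peaks, and an IDR limit of 2% was applied. The deposited values are peak positions and an IDR per peak, comparable to a q-value, from 1 list that merges both replicates. No file of the input DNA was used, depth is unknown, and no test or error over replicates was possible.

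Starts were taken to count from 0, as in BED, and are given from 1. Genes came from GENCODE M21 and sequence from GRCm38.p6. Sequence results leave out peaks on scaffolds. All 10 member genes are named. For the 7 with a peak, sequences are given for the lowest-IDR peak and for every peak with an exact EGR1 motif, less annotated UTRs, which leaves none for Dusp10 peak 2 and parts for Dusp1, Dusp2 and Dusp14. Of the other pathway genes, those with 3 or more peaks or with none are named, and Mapk11 and Mapk12 for their peaks of equal IDR. Members, lists and motifs were chosen with earlier results of these data known. Wilson intervals cover counting error only. The scripts ran on Python 3.11.15 with SciPy 1.17.1 and matplotlib 3.10.9. Tested on simulated data, they recovered 200 of 200 peak assignments and 400 of 400 motif states. The motifs were planted in sequence of A and T only, unlike that of the peaks, so matches by chance could not arise.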

Additional observations from a re-analysis of the deposited data

How the results depend on the processing

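Values were recomputed under other distances, IDR limits, overlaps, start sites, motif and window settings. Of the recomputed values, 34 stayed within 1.5 times the reported value and 3 did not. A setting could give more than 1 value, and some of the values were counts of protein-coding genes. The median IDR rose to 0.000447 without the peaks of Dusp10. The median CpG ratio was 0.330 in the 2 peaks over 1 kb from a start site. With all annotated genes as the background, 23.0% (12764 genes) had a peak. The 34 include the motif count with 1 mismatch allowed, since the number of Dusp peaks alone was compared. The share of all peaks was then the higher (58.3% of the Dusp peaks against 69.8%). At an IDR of 0.001 or less 8 peaks were left, still at 7 genes, while the share of protein-coding genes with a peak fell to 29.0%. Alternatives added after the data were seen left 11 peaks at 6 genes without the 2 long Dusp1 transcripts. With peaks of a single protein-coding gene, 7 peaks at 4 genes and 4974 protein-coding genes were left, and these 3 counts did not stay within 1.5 times the reported values. No replicate could be left out, because the list merges both experiments. No paired analysis was possible because the result comes from no test.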
